A study of Mus musculus with 16 samples.

Results

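Chromatin-associated RNA of mouse embryonic stem cells carrying IDR-deleted KDM6A (also called UTX) was compared with that of cells carrying IDR-deleted KDM6B, so that the 2 paralogs were set against each other with the intrinsically disordered region (IDR) missing from each. The 4 libraries, 2 for each construct, were chosen by the labelled construct out of 16 libraries in 8 groups. All were E14TG2a cells, a feeder-independent male line, kept per the labels with LIF at 1000 U per ml, the MEK inhibitor PD0325901 at 1 µM and the GSK3 inhibitor CHIR99021 at 3 µM. Every group of the series overexpressed a demethylase, full-length or IDR-deleted, so none of them is an untreated control. Full-length KDM6A and full-length KDM6B, 2 libraries each, gave the same paralog comparison with the IDR present, and they share no library with it. The labels give neither the residues removed, nor the promoter or vector of the constructs, nor whether the 2 libraries of a construct are separate cultures, clones or technical repeats. The p-values therefore cover only the spread between these libraries, which may be technical. In what follows, "KDM6A libraries" and "KDM6B libraries" are the IDR-deleted ones unless full-length is stated.

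KDM6A and KDM6B remove methyl groups from lysine 27 of histone H3, the mark that the Polycomb repressive complex PRC2 writes over silent developmental genes. KDM6A, encoded on the X chromosome, also belongs to the MLL3/4 (COMPASS) complexes, which methylate H3K4 at enhancers, and has a Y-linked relative, Uty. KDM6B, also known as JMJD3, is better known as an inducible enzyme of differentiation and inflammation. RNA held on chromatin is rich in nascent transcripts, introns, repeats and nuclear noncoding RNAs, while mature mRNAs, mitochondrial transcripts and 7SL RNA reside mostly in the cytoplasm.

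The KDM6A libraries held 42953407 and 49835987 gene reads and the KDM6B libraries 49263321 and 54890756. RNAs of the ERCC spike-in set, which the labels do not mention, took 0.806% and 0.7996% of gene and spike-in reads in KDM6A and 1.50001% and 1.53% in KDM6B. Naive stem cell markers were high in all 4 libraries: 9 of them (Pou5f1, Sox2, Nanog and others) summed to 2615 and 2474 CPM (read counts relative to the library total after TMM scaling) in KDM6A and 2845 and 2862 in KDM6B. Markers of other lineages were low. The 5 fibroblast markers summed to 3.69 and 4.05 CPM in KDM6A against 5.59 and 6.96 in KDM6B, with Postn and Dcn under 0.5 CPM, and the 5 trophectoderm markers to 10.6 and 10.1 CPM in KDM6A against 12.1 and 12.3 in KDM6B, with Cdx2 under 0.5 CPM. The 5 primitive endoderm markers summed to 21.3 and 19.7 CPM in KDM6A against 35.6 and 33.1 in KDM6B, the 5 neural ones to 21.7 and 22.2 CPM in KDM6A against 34.9 and 34.4 in KDM6B, and the 4 mesendoderm ones to 3.04 and 3.301 CPM in KDM6A against 6.81 and 5.81 in KDM6B. In this bulk RNA, fewer cells of a type and less RNA per cell cannot be told apart.

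The overexpressed genes were looked at before all others. Kdm6a itself (ENSMUSG00000037369, chromosome X, 18028814 to 18146175, plus strand) stood at 435 and 415 CPM in KDM6A and 95.7 and 95.7 CPM in KDM6B. The difference was 2.15 ± 0.042 on the log2 scale (IDR-deleted KDM6A minus IDR-deleted KDM6B, ± SE, edgeR adjusted p = 2.75e-32), against 2.12 ± 0.042 between the full-length groups. Kdm6b (ENSMUSG00000018476, chromosome 11, 69289334 to 69304501, minus strand) stood at 77.5 and 69.6 CPM in KDM6A and 93.02 and 96.4 CPM in KDM6B, a log2 difference of -0.37 ± 0.06, or 0.72 when libraries were scaled by their ERCC reads. Reads of Kdm6a thus marked its own libraries clearly. Those of Kdm6b were highest in the IDR-deleted KDM6B libraries by TMM, with 69.1 to 85.2 CPM in the other 12 libraries of the series. That difference was no larger than those of Kdm4a and Kdm4b given below and turned round by ERCC, so it does not show the KDM6B construct. Construct and endogenous reads of a gene are counted together. Uty, the Y-linked relative, stood at 32.5 and 38.9 CPM in KDM6A and 18.7 and 18.2 CPM in KDM6B (0.95 ± 0.084). Kdm4a (-0.58 ± 0.044, or 0.51 by ERCC) and Kdm4b (-0.38 ± 0.065, or 0.71), demethylases of H3K9 and H3K36 that none of these 4 libraries overexpressed, were higher in the KDM6B libraries relative to the median gene and lower by ERCC scaling.

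Of 31057 genes tested, 18940 (61%) differed between the paralogs at adjusted p under 0.05: 9660 (31.1%) were higher in KDM6A and 9280 (29.9%) higher in KDM6B. The libraries of the groups did not overlap at all for 24975 genes (80.4%). These differences are relative to the median gene. With ERCC reads as the scale, the median log2 difference moved from 0.064 to 1.15, a shift of 1.09, and then 21941 genes were higher in KDM6A and 1549 in KDM6B. Protein-coding genes, which make up most of the lists below, had a background of their own: 23.8% were higher in KDM6A and 46.0% higher in KDM6B, at a median of -0.23. Since spike-in amounts are not described in the labels, both scalings are given below, and a gene is said to be higher in a group relative to the median gene unless ERCC is named. A difference that ERCC scaling turns round is marked by its ERCC value in the same sentence.

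**Figure D1:**
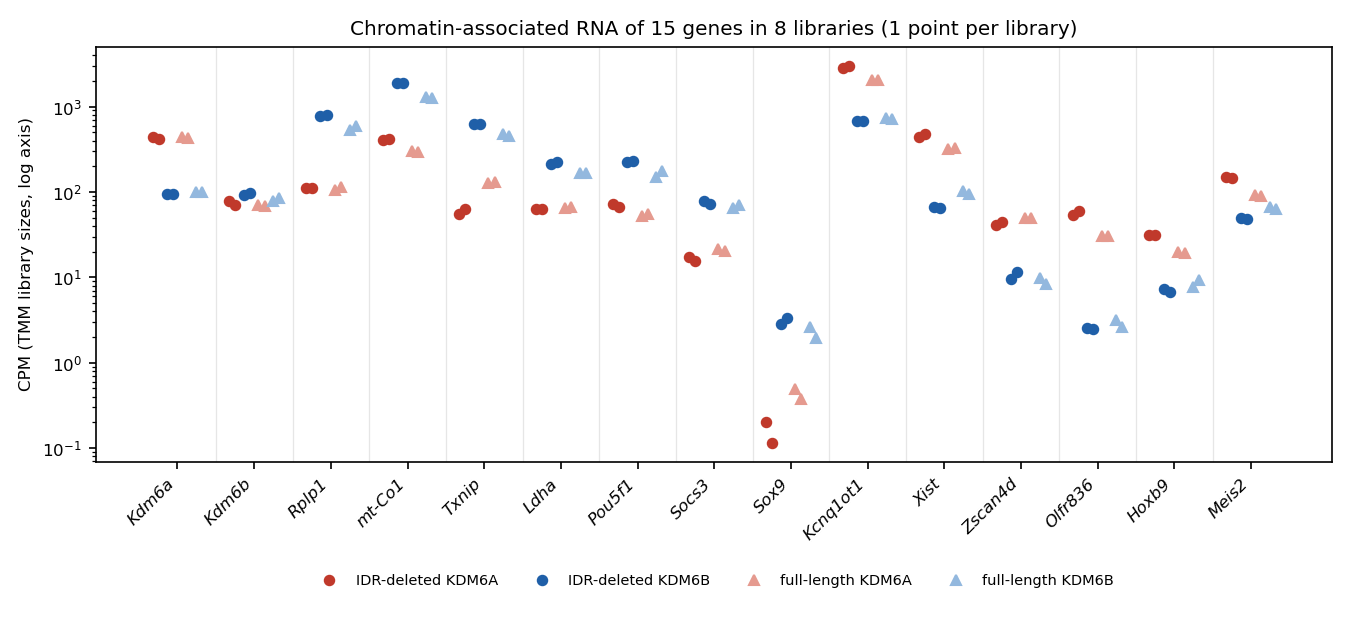
CPM of 15 genes on a log axis in the IDR-deleted (circles) and full-length (triangles) KDM6A and KDM6B libraries, 1 point per library. Kdm6a, Kcnq1ot1, Xist, Zscan4d, Olfr836, Hoxb9 and Meis2 lie higher in the KDM6A libraries and Rplp1, mt-Co1, Txnip, Ldha, Pou5f1, Socs3 and Sox9 higher in the KDM6B libraries, with no overlap between the 2 IDR-deleted groups.

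Messenger RNAs of protein synthesis and energy metabolism were higher in the KDM6B libraries. Of 83 cytosolic ribosomal protein genes, 79 were higher in KDM6B and 3 in KDM6A, with a median log2 difference of -1.64 (-0.55 by ERCC), where all genes tested had 0.064 (1.15 by ERCC) and 29.9% were higher in KDM6B. Their summed level was 9605 and 9347 CPM in KDM6A and 28969 and 29407 CPM in KDM6B. Rplp1, a stalk protein of the large subunit (ENSMUSG00000007892, chromosome 9, 61820566 to 61821824, minus strand), stood at 112 and 109.8 CPM in KDM6A and 774 and 793 CPM in KDM6B, a log2 difference of -2.82 ± 0.047 (-1.73 by ERCC). Its partner in the stalk, Rplp2, stood at 162 and 152 CPM in KDM6A and 715 and 739 CPM in KDM6B (-2.21 ± 0.04). Rpl8, another large-subunit protein, stood at 182 and 171 CPM in KDM6A and 745 and 764 CPM in KDM6B (-2.10 ± 0.042). For each of these 3 genes the replicate libraries lay close together and far from the other group. Ribosomal protein genes have many processed copies in the genome, so reads of the genes and of their copies may not be fully separated.

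All 13 mitochondrially encoded protein genes were higher in KDM6B (median -1.22, -0.13 by ERCC), and together they gave 1153 and 1228 CPM in KDM6A and 3513 and 3513 CPM in KDM6B. The cytochrome oxidase subunit mt-Co1 (404 and 418 CPM in KDM6A and 1874 and 1892 CPM in KDM6B) differed by -2.20 ± 0.035, and cytochrome b, mt-Cytb, by -1.13 ± 0.047, which by ERCC was -0.04 and no longer passed the test. Some small structured RNAs went the same way. The Y RNA Rny1, a partner of the Ro60 protein, stood at 1.18 and 3.01 CPM in KDM6A and 26.5 and 31.5 CPM in KDM6B (-3.76 ± 0.77, adjusted p = 0.00245). Rprl3, a copy of the RNase P RNA, stood at 4.67 and 3.92 CPM in KDM6A and 41.8 and 39.95 CPM in KDM6B (-3.25 ± 0.12). The mitochondrial methionine tRNA, mt-Tm, was nearly undetected in KDM6A, at 0.0447 and 0.0768 CPM in KDM6A and 1.26 and 1.47 CPM in KDM6B (-4.41 ± 0.82). Of the 7 small structured RNAs tested, 4 were higher in KDM6B and 0 in KDM6A (median -0.68, 0.41 by ERCC). Mitochondrial RNAs and Rny1 thus moved with the mRNAs above and with those that follow, and their part in those differences was not tested.

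Genes of glycolysis and of the response to low oxygen were nearly all higher in KDM6B, 26 of 28, with 1 higher in KDM6A (median -1.23, -0.15 by ERCC). Lactate dehydrogenase Ldha (ENSMUSG00000063229, chromosome 7, 46490899 to 46505051, plus strand) stood at 63.4 and 63.1 CPM in KDM6A and 210.4 and 222 CPM in KDM6B, a log2 difference of -1.77 ± 0.045. Phosphoglycerate kinase Pgk1 (ENSMUSG00000062070, chromosome X, 105230706 to 105247305, plus strand) stood at 37.6 and 38.8 CPM in KDM6A and 159 and 153 CPM in KDM6B (-2.03 ± 0.053). Glucose-6-phosphate isomerase Gpi1 stood at 149 and 139 CPM in KDM6A and 454 and 445 CPM in KDM6B (-1.65 ± 0.04). The angiogenic factor Vegfa stood at 81.3 and 75.8 CPM in KDM6A and 241 and 239 CPM in KDM6B (-1.61 ± 0.044). All 4 were also lower in KDM6A by ERCC scaling (-0.68, -0.95, -0.56 and -0.52). Of the 28 members, however, 12 were then higher in KDM6A and 13 higher in KDM6B. The promoters of Ldha and Pgk1 are shown because they carry the letters ACGTG, the core of the element that hypoxia-inducible factors bind, read on either strand as ACGTG or CACGT and given in capitals. They span 250 bases before to 50 after the start, 5′ to 3′, from the RefSeq table of GRCm38.p6: Ldha at chr7:46845554-46845853 on the plus strand, which is the upstream start of 2, and Pgk1 at chrX:106186850-106187149 on the plus strand.
Ldha: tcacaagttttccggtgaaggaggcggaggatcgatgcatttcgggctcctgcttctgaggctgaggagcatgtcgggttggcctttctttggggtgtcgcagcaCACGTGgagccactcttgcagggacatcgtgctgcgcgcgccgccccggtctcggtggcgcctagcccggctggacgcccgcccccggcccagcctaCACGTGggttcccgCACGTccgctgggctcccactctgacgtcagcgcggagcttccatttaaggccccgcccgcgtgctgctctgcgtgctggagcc
Pgk1: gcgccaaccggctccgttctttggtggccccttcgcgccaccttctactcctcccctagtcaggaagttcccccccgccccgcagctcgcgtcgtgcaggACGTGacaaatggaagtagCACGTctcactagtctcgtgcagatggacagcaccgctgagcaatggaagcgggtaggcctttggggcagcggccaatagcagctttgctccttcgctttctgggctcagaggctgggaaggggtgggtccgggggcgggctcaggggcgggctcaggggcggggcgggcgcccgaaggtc
The Ldha window holds 5 matches, a palindrome CACGTG counting once per strand, and the Pgk1 window 2. Of the 28 list members 24 had a promoter in the table, and 14 of these (58.3%) held a match, against 19.6% of all 27025 genes with a promoter of the same length. ACGTG itself holds a CG, and the list promoters held a median of 22.5 CG against 7 over all promoters of the table. Among the 13284 protein-coding genes tested that had a promoter there, 76.8% of those tested, the median was 18 CG and 23.4% held a match. The part of CG content in the higher share was not tested. A match is a description of the sequence and not a shown binding site.

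Txnip, a thioredoxin-binding regulator of glucose uptake, was among the genes with the largest differences at 20 CPM or more. It (ENSMUSG00000038393, chromosome 3, 96465273 to 96469199, plus strand) stood at 55.2 and 63.1 CPM in KDM6A and 627 and 626 CPM in KDM6B, a log2 difference of -3.40 ± 0.047 (adjusted p = 8.89e-37, -2.32 by ERCC). Fabp3, a fatty acid binding protein, stood at 21.1 and 17.7 CPM in KDM6A and 159 and 156 CPM in KDM6B (-3.02 ± 0.072). IDR-deleted KDM4A was also high in Txnip (532 and 548 CPM) and Fabp3 (107 and 102 CPM). High levels of these genes are thus not particular to KDM6B constructs. It did not share every difference: its mitochondrially encoded genes averaged a sum of 1199 CPM, as low as in KDM6A. Stress and growth programmes were also higher in the KDM6B libraries than in KDM6A. Of 21 chaperone genes 16 were higher in KDM6B and 3 in KDM6A (median -0.87, but 0.22 by ERCC), with Hsp90aa1 at 1225 and 1146 CPM in KDM6A and 3109 and 3271 CPM in KDM6B (-1.43 ± 0.035) and the mitochondrial co-chaperone Hspe1 at 27.5 and 29.1 CPM in KDM6A and 84.4 and 89.2 CPM in KDM6B (-1.62 ± 0.07). Of 27 targets of ATF4 and the unfolded protein response 21 were higher in KDM6B and 4 in KDM6A (median -0.70, 0.39 by ERCC). Among them the serine synthesis enzyme Psat1 differed by -1.36 ± 0.047 and the glutathione-degrading Chac1 by -1.54 ± 0.086.

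Among 25 sterol synthesis genes 17 were higher in KDM6B and 3 in KDM6A (median -0.69, 0.40 by ERCC). Phosphomevalonate kinase, Pmvk, differed by -1.70 ± 0.10, and squalene synthase, Fdft1, by -1.06 ± 0.051, which by ERCC was 0.023. Histone and division genes followed. Of 65 replication-dependent histone genes 46 were higher in KDM6B and 3 in KDM6A (median -0.77, 0.31 by ERCC), as Hist1h4d, an H4 gene, at 22.7 and 23.3 CPM in KDM6A and 75.9 and 79.2 CPM in KDM6B (-1.75 ± 0.069). Histone genes are near-identical copies, so single members are uncertain. Of 28 mitotic genes 19 were higher in KDM6B and 4 in KDM6A (median -0.36, 0.73 by ERCC), with -1.43 ± 0.062 for cyclin B2, Ccnb2, and -0.65 ± 0.03 for the kinetochore protein Cenpf (0.44 by ERCC). Of 30 p53 targets 21 were higher in KDM6B and 5 in KDM6A (median -0.41, 0.68 by ERCC), among them the antiproliferative Btg2 (-1.38 ± 0.063).

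Pluripotency genes did not move as a block. Of 28 naive genes 16 were higher in KDM6B and 10 in KDM6A (median -0.25, 0.84 by ERCC). Pou5f1 (OCT4), the central pluripotency factor (ENSMUSG00000024406, chromosome 17, 35816915 to 35821669, plus strand), stood at 71.9 and 66.4 CPM in KDM6A and 222 and 233 CPM in KDM6B (-1.72 ± 0.056, -0.63 by ERCC). Nanog, at 105 and 106 CPM in KDM6A and 219.6 and 229 CPM in KDM6B, differed by -1.08 ± 0.043, and by ERCC the groups were level (0.0048). Fgf4, the growth factor that drives exit from the naive state, differed by -0.79 ± 0.04 (0.30 by ERCC). Tbx3, a naive transcription factor, went the other way, at 339 and 318 CPM in KDM6A and 167 and 169.6 CPM in KDM6B (0.96 ± 0.044). Among 22 formative and primed genes 11 were higher in KDM6B and 7 in KDM6A (median -0.13, 0.96 by ERCC). The DNA methylation cofactor Dnmt3l (-1.18 ± 0.055, -0.10 by ERCC, not called) and the methyltransferase Dnmt3b (-0.92 ± 0.055, 0.17 by ERCC) were both higher in KDM6B.

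Targets of the cytokine LIF, which keeps these cells undifferentiated, were mostly higher in KDM6B: 11 of 13, with 1 higher in KDM6A (median -0.75, 0.34 by ERCC). Socs3, the feedback inhibitor of the pathway (ENSMUSG00000053113, chromosome 11, 117856905 to 117860873, minus strand), stood at 17.3 and 15.4 CPM in KDM6A and 78.7 and 72.8 CPM in KDM6B (-2.21 ± 0.094), and the kinase Pim3 at 23.2 and 20.3 CPM in KDM6A and 89.6 and 87.9 CPM in KDM6B (-2.03 ± 0.065). The LIF receptor gene Lifr differed less, by -0.76 ± 0.037 (0.33 by ERCC). Of 29 genes induced by ERK, 17 were higher in KDM6B and 6 in KDM6A (median -0.74, 0.35 by ERCC), with the matricellular Ccn1 at -1.43 ± 0.061 and, higher in KDM6A, the ETS factor Etv1 at 1.14 ± 0.076. Of 17 WNT targets 7 were higher in KDM6B and 4 in KDM6A (median -0.56, 0.53 by ERCC). The WNT inhibitor Notum was higher in KDM6A (1.42 ± 0.12) and the nuclear effector Tcf7 in KDM6B (-0.71 ± 0.065, 0.38 by ERCC). Of 17 Nodal and BMP targets 7 were higher in KDM6B and 5 in KDM6A (median 0.065, or -0.012 and -0.05 when the first or the second KDM6A library was left out), with the Nodal co-receptor Tdgf1 at -0.93 ± 0.051 (0.15 by ERCC) and, higher in KDM6A, the Nodal antagonist Lefty2 at 0.84 ± 0.10. Of 25 interferon-stimulated genes 11 were higher in KDM6B and 4 in KDM6A (median -0.56, 0.52 by ERCC). They included the virus-tethering Bst2, at 0.37995 and 0.403 CPM in KDM6A and 4.501 and 4.12 CPM in KDM6B (-3.45 ± 0.29), and the signal transducer Stat2 (-0.63 ± 0.042, 0.46 by ERCC).

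Genes of other lineages and targets of H3K27 methylation were more often higher in KDM6B than in KDM6A, as were protein-coding genes in general (46.0%). The shares higher in KDM6B lay near that background in the Hox, neural, WNT, interferon, Nodal and BMP, and formative and primed lists. They also did so in the imprinted, COMPASS, exosome and other-demethylase lists described below. In the Polycomb-bound, germline, PRC2, PRC1, naive and ERK lists they were only somewhat above it. The shares higher in KDM6A and the medians lay further from the background in some lists. Of the Polycomb-bound genes 4 of 84 were higher in KDM6A, and of the neural ones 1 of 24, against 23.8% of protein-coding genes. Their medians were -1.04 and -0.74, against -0.23. The naive list, by contrast, had 10 of 28 higher in KDM6A, at a median of -0.25. Of 84 developmental regulators known to carry the mark in stem cells, 46 were higher in KDM6B, 4 in KDM6A and 34 did not pass the test, at a median of -1.04. By ERCC the split was 23 higher in KDM6A and 18 in KDM6B, at a median of 0.044. Sox9, a factor of cartilage and gonad (ENSMUSG00000000567, chromosome 11, 112673050 to 112678586, plus strand), stood at 0.201 and 0.115 CPM in KDM6A and 2.805 and 3.37 CPM in KDM6B (-4.29 ± 0.37), and Barx1, of stomach and jaw, at 0.536 and 0.346 CPM in KDM6A and 4.72 and 5.16 CPM in KDM6B (-3.49 ± 0.28). Meis2, a TALE homeobox gene (ENSMUSG00000027210, chromosome 2, 115693545 to 115896320, minus strand), was an exception, at 151 and 147 CPM in KDM6A and 48.9 and 48.4 CPM in KDM6B (1.62 ± 0.051). The summed level of the list was 345 and 326 CPM in KDM6A and 308 and 309 CPM in KDM6B and so lay higher in KDM6A, against the direction of the median. Among 36 Hox genes 16 were higher in KDM6B and 5 in KDM6A (median -0.85, 0.23 by ERCC). Hoxa10 stood at 0.492 and 0.672 CPM in KDM6A and 3.28 and 3.35 CPM in KDM6B (-2.50 ± 0.29) and Hoxb9 on the other side at 31.4 and 31.1 CPM in KDM6A and 7.197 and 6.77 CPM in KDM6B (2.16 ± 0.10). Members of the Hox clusters thus differed in both directions.

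Of 17 trophectoderm markers 13 were higher in KDM6B and 1 in KDM6A (median -1.26, -0.17 by ERCC). The trophoblast regulator Tfap2c stood at 9.43 and 11.7 CPM in KDM6A and 38.8 and 40.01 CPM in KDM6B (-1.90 ± 0.091). The placental homeobox gene Esx1 stood at 1.27 and 1.401 CPM in KDM6A and 10.7 and 9.38 CPM in KDM6B (-2.90 ± 0.20). The keratin Krt18 (-2.14 ± 0.18) and the transcription factor Gata2 (-2.005 ± 0.18) were under 10 CPM in every one of the 4 libraries. Of 19 mesendoderm markers 14 were higher in KDM6B and 2 in KDM6A (median -1.83, -0.74 by ERCC), with Eomes at 5.297 and 4.24 CPM in KDM6A and 12.9 and 13.5 CPM in KDM6B (-1.47 ± 0.13). Of 23 primitive endoderm markers 17 were higher in KDM6B and 1 in KDM6A (median -0.73, 0.35 by ERCC). The basement membrane collagen Col4a2 stood at 103 and 96.2 CPM in KDM6A and 221 and 222 CPM in KDM6B (-1.15 ± 0.054, -0.062 by ERCC, not called), and the laminin Lama1, the exception, at 461 and 442 CPM in KDM6A and 359.5 and 354 CPM in KDM6B (0.34 ± 0.037). Of 24 neural markers 12 were higher in KDM6B and 1 in KDM6A (median -0.74, 0.35 by ERCC), with -0.95 ± 0.054 for the intermediate filament Nes (0.14 by ERCC) and -1.64 ± 0.13 for the neurofilament Nefl. Of 13 fibroblast genes 8 were higher in KDM6B and 2 in KDM6A (median -0.82, 0.26 by ERCC), such as fibronectin, Fn1 (-0.51 ± 0.029, 0.58 by ERCC) and the intermediate filament Vim (-1.25 ± 0.065, -0.16 by ERCC, not called), which stem cells express as well.

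The KDM6A libraries were higher for genes of the 2-cell stage, odorant and vomeronasal receptors and clustered protocadherins. Of 40 genes of the 2-cell stage, which a rare 2-cell-like state re-expresses in culture, 35 were higher in KDM6A and 1 in KDM6B (median 1.43, 2.49 by ERCC). Zscan4d, a telomere-associated zinc finger gene of that state (ENSMUSG00000090714, chromosome 7, 10895301 to 10900086, minus strand), stood at 40.7 and 44.7 CPM in KDM6A and 9.68 and 11.5 CPM in KDM6B (2.01 ± 0.079), and Zscan4e at 52.6 and 50.3 CPM in KDM6A and 13.7 and 13.8 CPM in KDM6B (1.90 ± 0.065). The 5 markers of such cells summed to 94.1 and 93.8 CPM in KDM6A, 31.4 and 29.4 in KDM6B and 26.5 to 176 over the other 12 libraries, so both groups lay inside the range of the series. The table holds 1737 odorant and vomeronasal receptor genes, of which 917 had no read in the 4 libraries and 279 passed the filter on low counts. Of those 279, 156 were higher in KDM6A and 7 in KDM6B. A receptor can pass that filter through the higher group alone, so the sum over all 1737 is the fairer measure: 600.1 and 621 CPM in KDM6A and 159 and 161 CPM in KDM6B, and 162 to 965 over the other 12 libraries. Olfr836 (ENSMUSG00000059303, chromosome 9, 19031678 to 19037234, plus strand) stood at 53.98 and 60.2 CPM in KDM6A and 2.57 and 2.45 CPM in KDM6B (4.51 ± 0.11). The pheromone receptor Vmn2r79 stood at 14.7 and 16.9 CPM in KDM6A and 0.391 and 0.608 CPM in KDM6B (4.96 ± 0.18). Further odorant receptors of chromosome 9, Olfr837 (5.01 ± 0.23) and Olfr986 (3.09 ± 0.07), went the same way. Members of these families are near copies of each other, and single values are uncertain.

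Of 56 clustered protocadherin genes, whose combinations label neurons, 35 passed the filter on low counts, and of these 22 were higher in KDM6A and 1 in KDM6B (median 1.15, 2.24 by ERCC). The sum over all 56, which does not depend on the filter, was 405 and 395 CPM in KDM6A and 215 and 214 CPM in KDM6B, and 147 to 444 CPM over the other 12 libraries. Pcdhgb5 stood at 32.3 and 29.7 CPM in KDM6A and 9.76 and 9.75 CPM in KDM6B (1.67 ± 0.085). Iglc3, an immunoglobulin light chain constant gene, drew 64 and 89 reads in the KDM6A libraries and none in the KDM6B ones, at least 51.1-fold higher against a floor of 3 reads over the group. In the other direction Gstt1, a glutathione transferase, drew no read in KDM6A and 45 and 90 in KDM6B, at least 44.9-fold higher there, and Fam83f stood at 0.0894 and 0.115 CPM in KDM6A and 2.805 and 2.96 CPM in KDM6B (-4.77 ± 0.38). Well-expressed single genes higher in KDM6A were the mitochondrial malic enzyme Me3, at 20.7 and 23.1 CPM in KDM6A and 2.0004 and 1.24 CPM in KDM6B (3.77 ± 0.14), and the prostaglandin D synthase Hpgds, at 116 and 125 CPM in KDM6A and 16.7 and 18.8 CPM in KDM6B (2.76 ± 0.086). The promoters of a ribosomal protein gene, a 2-cell gene and a receptor gene are shown because their groups lay far apart in the comparison, with each CG in capitals (GRCm38.p6, RefSeq, same window): Rplp2 at chr7:141447401-141447700 on the plus strand, Zscan4d at chr7:11166099-11166398 on the minus strand and Olfr836 at chr9:19120707-19121006 on the plus strand.
Rplp2: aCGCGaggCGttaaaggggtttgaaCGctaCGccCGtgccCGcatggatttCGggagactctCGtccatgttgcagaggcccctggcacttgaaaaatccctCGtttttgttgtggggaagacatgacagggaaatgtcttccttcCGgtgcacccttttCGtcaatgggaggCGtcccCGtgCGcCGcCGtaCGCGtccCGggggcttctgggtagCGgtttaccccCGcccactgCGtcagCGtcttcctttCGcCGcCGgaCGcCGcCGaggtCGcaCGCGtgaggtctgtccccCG
Zscan4d: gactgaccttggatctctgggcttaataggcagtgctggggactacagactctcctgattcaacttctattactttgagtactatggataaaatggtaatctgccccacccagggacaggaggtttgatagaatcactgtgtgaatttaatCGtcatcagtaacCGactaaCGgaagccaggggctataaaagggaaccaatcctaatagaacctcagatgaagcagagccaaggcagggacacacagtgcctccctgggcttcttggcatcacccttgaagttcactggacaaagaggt
Olfr836: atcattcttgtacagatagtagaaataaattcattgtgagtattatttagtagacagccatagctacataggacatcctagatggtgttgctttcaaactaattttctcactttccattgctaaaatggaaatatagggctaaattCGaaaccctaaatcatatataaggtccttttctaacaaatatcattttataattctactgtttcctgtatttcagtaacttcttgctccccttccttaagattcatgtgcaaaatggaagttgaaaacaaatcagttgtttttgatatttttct
They hold 34, 3 and 1 CG in that order, where the median over all promoters of the table was 7. CG content was not tested over the called genes. Of the protein-coding genes tested 76.8% had a promoter in the table, under the 80% asked for, and these held a median of 18 CG.

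**Figure D2:**
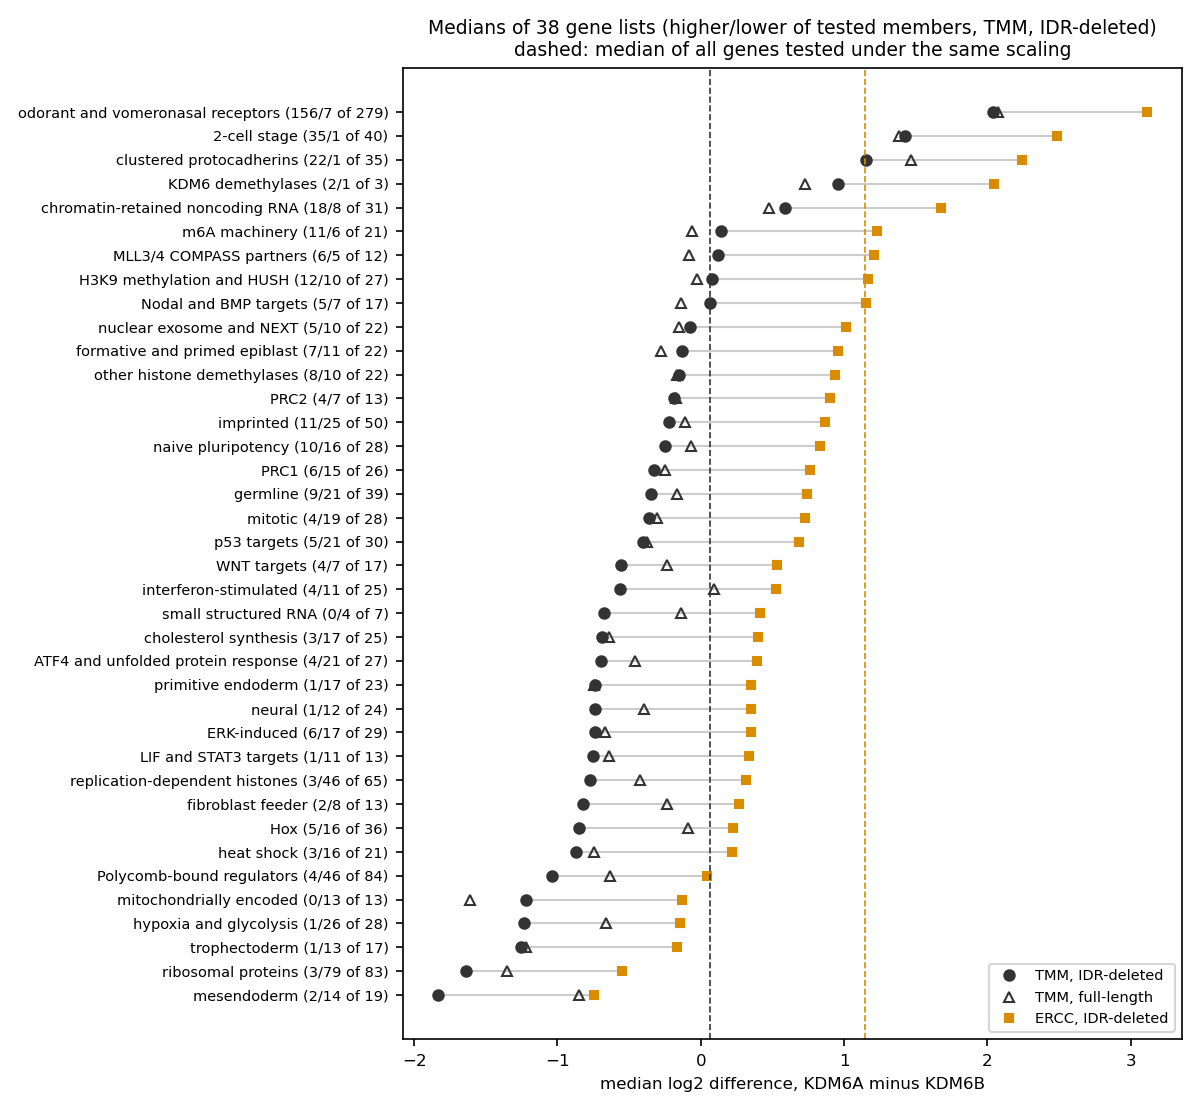
Median log2 difference, KDM6A minus KDM6B, of 38 gene lists by TMM scaling in the IDR-deleted (filled circles) and full-length (open triangles) groups and by ERCC scaling in the IDR-deleted groups (squares), with the number of members higher and lower in KDM6A. Dashed lines mark the medians of all genes tested, 0.06 and 1.15, and the medians of receptor, 2-cell and protocadherin genes lie to the right of them under both scalings.

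Of 31 long noncoding RNAs that stay on chromatin, 18 were higher in KDM6A and 8 in KDM6B (median 0.59, 1.68 by ERCC). Their summed level lay the other way, at 26491 and 27363 CPM in KDM6A and 28304 and 27829 CPM in KDM6B. Kcnq1ot1, the imprinted antisense RNA that silences its own cluster (ENSMUSG00000101609, chromosome 7, 142731562 to 142850286, minus strand), stood at 2846 and 2999 CPM in KDM6A and 675 and 669.6 CPM in KDM6B (2.12 ± 0.032, adjusted p = 2.80e-36). Xist, the RNA of X inactivation (ENSMUSG00000086503, chromosome X, 102503972 to 102526860, minus strand), stood at 442 and 481 CPM in KDM6A and 65.97 and 64.7 CPM in KDM6B (2.82 ± 0.054), and Tsix, its antisense partner, at 307 and 286 CPM in KDM6A and 68.7 and 64.5 CPM in KDM6B (2.15 ± 0.048). The reads were counted without strand, so the shared part of Xist and Tsix cannot be split between them. Sox2ot, the RNA around Sox2, stood at 46.8 and 44.5 CPM in KDM6A and 6.15 and 6.08 CPM in KDM6B (2.90 ± 0.089). Of 50 imprinted genes 25 were higher in KDM6B and 11 in KDM6A (median -0.22, 0.87 by ERCC). Peg3, a paternally expressed zinc finger gene (ENSMUSG00000002265, chromosome 7, 6706891 to 6733430, minus strand), lay opposite to Kcnq1ot1, at 94.8 and 92.4 CPM in KDM6A and 379 and 378 CPM in KDM6B (-2.02 ± 0.04). Of 39 germline genes, which promoter methylation normally silences, 21 were higher in KDM6B and 9 in KDM6A (median -0.34, 0.74 by ERCC), among them the meiotic gatekeeper Stra8 at 6.08 and 6.18 CPM in KDM6A and 16.8 and 18.7 CPM in KDM6B (-1.53 ± 0.12) and the meiotic cohesin Rec8 (-1.24 ± 0.065, -0.15 by ERCC, not called).

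Chromatin regulators themselves differed in both directions. Of 12 members of the COMPASS complexes 6 were higher in KDM6A and 5 in KDM6B (median 0.12). The core subunit Dpy30 stood at 30.2 and 30.6 CPM in KDM6A and 79.4 and 84.3 CPM in KDM6B (-1.43 ± 0.064) and the methyltransferase Kmt2a at 809 and 767 CPM in KDM6A and 603 and 595 CPM in KDM6B (0.40 ± 0.033). Of 13 PRC2 genes 4 were higher in KDM6A and 7 in KDM6B (median -0.18, 0.90 by ERCC), where the catalytic subunit Ezh1 stood at 55.7 and 55.7 CPM in KDM6A and 141 and 142 CPM in KDM6B (-1.34 ± 0.048) and the accessory subunit Aebp2 at 337 and 354 CPM in KDM6A and 206 and 212 CPM in KDM6B (0.73 ± 0.042). Of 26 PRC1 genes 6 were higher in KDM6A and 15 in KDM6B (median -0.32, 0.76 by ERCC). Of 22 other histone demethylases 8 were higher in KDM6A and 10 in KDM6B (median -0.15, 0.94 by ERCC). The H3K4 demethylase Kdm5b stood at 1424 and 1413 CPM in KDM6A and 770.3 and 766 CPM in KDM6B (0.88 ± 0.029) and the H3K36 demethylase Kdm2a at 294 and 291 CPM in KDM6A and 158 and 156 CPM in KDM6B (0.90 ± 0.038), each higher in KDM6A.

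Of 27 genes of H3K9 methylation and the HUSH complex, which silence repeats, 12 were higher in KDM6A and 10 in KDM6B (median 0.076). The H3K9 methyltransferase Suv39h1 stood at 58.8 and 60.1 CPM in KDM6A and 20.7 and 21.6 CPM in KDM6B (1.49 ± 0.065) and the methylcytosine oxidase Tet1 at 2368 and 2309 CPM in KDM6A and 1445 and 1454 CPM in KDM6B (0.69 ± 0.026). Of 21 genes that write, read or erase m6A on RNA 11 were higher in KDM6A and 6 in KDM6B (median 0.14), with the m6A eraser Alkbh5 higher in KDM6B (-1.41 ± 0.06) and the writer Mettl16 higher in KDM6A (0.90 ± 0.042). Of 22 nuclear exosome genes 5 were higher in KDM6A and 10 in KDM6B (median -0.076, 1.01 by ERCC), among them the nuclease Dis3 (-0.68 ± 0.042, 0.40 by ERCC) and, higher in KDM6A, the core subunit Exosc5 (0.87 ± 0.055).

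With the IDR present, the same paralog comparison called 15759 genes (50.7%), 7981 higher in full-length KDM6A and 7778 higher in full-length KDM6B (22176 and 825 by ERCC). Of the genes called, 12812 were called in the same direction in both comparisons, which is 67.6% of those called without the IDR and 81.3% of those called with it, and 373 were called in opposite directions. Across 31057 genes the log2 differences of the 2 comparisons correlated with Pearson's r = 0.70 and Spearman's rho = 0.75, where genes are not independent replicates. The median size of the log2 difference was 0.72 without and 0.54 with the IDR. The difference of the paralog differences, tested in the same fit, was called for 6768 genes (21.8%), 3430 positive and 3338 negative (5682 and 1728 by ERCC). In 3281 of these the paralogs differed in the same direction and by more without the IDR, in 421 by less, in 373 in opposite directions, in 1901 only the IDR-deleted and in 728 only the full-length difference was called, and 64 had neither.

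**Figure D3:**
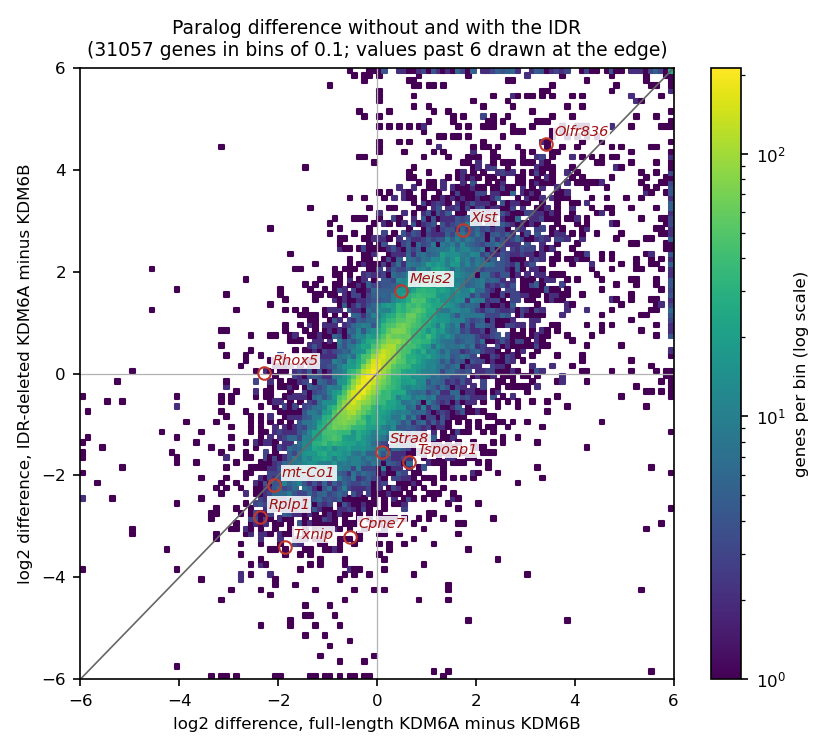
Log2 difference of KDM6A minus KDM6B for 31057 genes, full-length on the x axis and IDR-deleted on the y axis, in bins coloured by number of genes, with the line of equal differences. Most genes lie near that line, Txnip and Xist differ more without the IDR, and Rhox5, Stra8 and Tspoap1 lie far from it.

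Several genes described above were further apart without the IDR, with a called difference of differences. Txnip differed by -3.40 ± 0.047 without and -1.86 ± 0.044 with it, a difference of -1.54 ± 0.061 (adjusted p = 2.97e-20). Its mean level was 465 CPM in full-length and 626 CPM in IDR-deleted KDM6B, and 128 and 59.1 CPM in full-length and IDR-deleted KDM6A. Xist widened from 1.73 ± 0.052 to 2.82 ± 0.054, Kcnq1ot1 from 1.51 ± 0.031 to 2.12 ± 0.032, Meis2 from 0.49 ± 0.05 to 1.62 ± 0.051 and Gpi1 from -0.70 ± 0.04 to -1.65 ± 0.04. The glycolysis list had 20 members with a more negative difference without the IDR and 1 with a more positive difference (median -0.34), the ribosomal protein list 46 and 2 (-0.25) and the histone list 21 and 0 (-0.43). By contrast 0 mitochondrially encoded genes had a more negative and 4 a more positive difference (0.38). Over all genes the percentages of such calls were 10.7 negative and 11 positive. These list values are by TMM. ERCC scaling moved the median difference of differences over all genes by 0.16. Of the ribosomal protein genes named, Rpl8 and Rplp2 then lost their call, while Rplp1 kept it (-0.29).

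For other genes the paralog difference was much larger in 1 of the comparisons or changed sign. Stra8 stood at 13.02 and 12.2 CPM with the full-length proteins, a difference of 0.10 ± 0.12 that did not pass (adjusted p = 0.51), against -1.53 ± 0.12 without the IDR. Rhox5, an X-linked homeobox gene, was 4.43 against 21.5 CPM in full-length and 9.01 against 8.95 CPM in IDR-deleted libraries (0.0075 ± 0.13, not called, but 1.10 by ERCC, called). The imprinted growth regulator RNA H19 stood at 0.573 and 6.02 CPM in full-length and 0.566 and 1.59 CPM in IDR-deleted libraries (-1.48 ± 0.34, -0.40 by ERCC, not called). Cpne7, a copine, went from -0.54 ± 0.14 with the IDR to -3.21 ± 0.15 without it, and Tspoap1, a synaptic scaffold gene, turned from 0.64 ± 0.10 to -1.75 ± 0.10. The differences of Cybb, an NADPH oxidase subunit, were 3.28 ± 0.40 with and 0.75 ± 0.27 without the IDR, those of Serpina3m 2.76 ± 0.68 and -0.48 ± 0.41, and those of Pramel6 0.61 ± 0.13 and 2.17 ± 0.14. Serpina3m and Cybb were under 2 CPM in every one of these groups, and the call of Cybb without the IDR ended when any of 3 of the 4 libraries was left out. Stra8 lies on chromosome 6. That chromosome had 537 protein-coding genes tested with a mean of at least 5 CPM over the IDR-deleted KDM6A and KDM6B libraries. Their median difference of differences was -0.16, and the part of that shift in the value of Stra8 was not tested.

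Noncoding and protein-coding genes differed in their split. Among 17290 protein-coding genes 4111 (23.8%) were higher in KDM6A and 7961 (46.0%) higher in KDM6B, at a median of -0.23 (0.86 by ERCC). Genes annotated as TEC, transcripts still to be experimentally checked, were higher in KDM6A in 1300 of 2008 cases and in KDM6B in 75 (median 1.21), and sense-intronic genes in 177 and 10 of 256 (median 1.18). Antisense genes gave 886 and 154 of 2085, with strand ignored in the counting, and long intergenic RNAs 595 and 219 of 1971. A gene of low count can pass the filter through its higher group alone, so these splits hold for the genes tested. When protein-coding genes were ranked by their intron bases and cut into 5 groups of 3458, the median went from -0.42 in the group with the least (up to 3.96 kb) through -0.37, -0.32 and -0.21 to 0.065 in that with the most (from 61.3 kb). The full-length groups gave medians from -0.27 to 0.11. Reads were counted over exons, and longer genes differ in level as well: the median level was 4.72 CPM in the shortest and 25.2 CPM in the longest group.

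**Figure D4:**
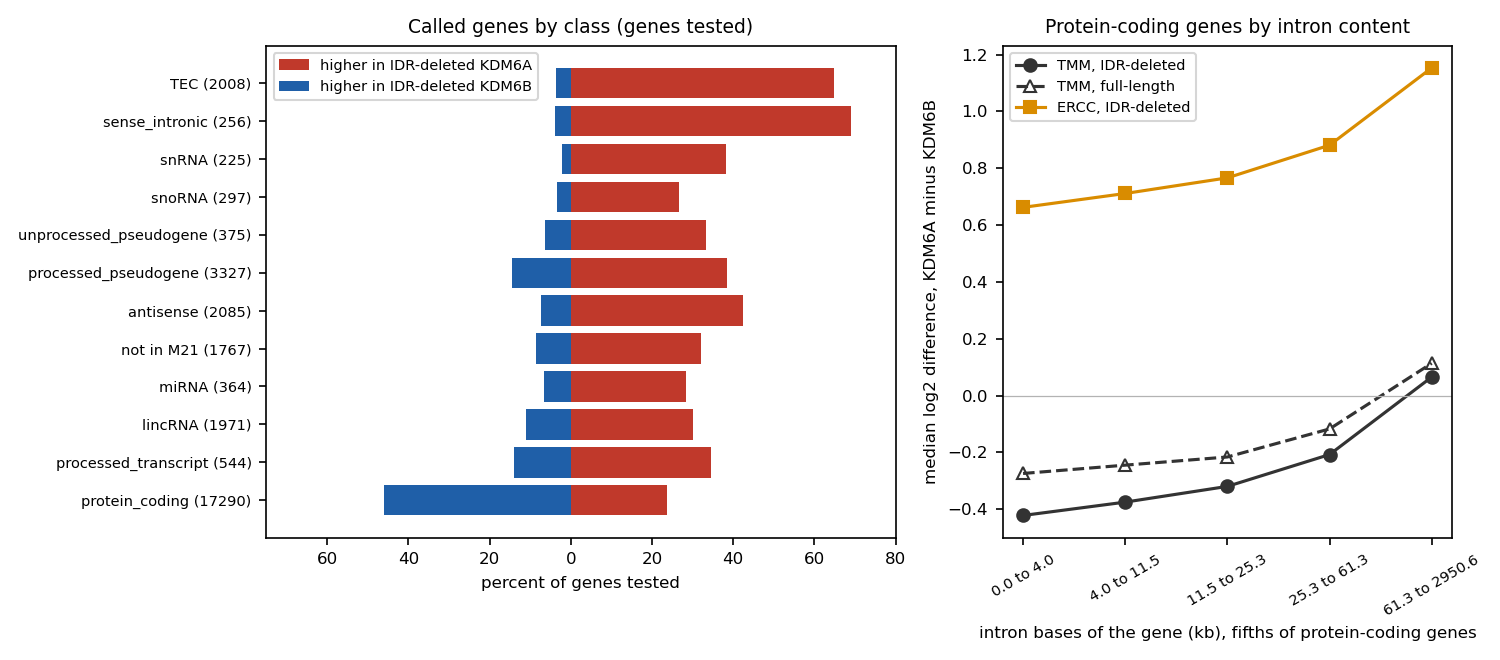
Left, percent of genes tested that were higher in IDR-deleted KDM6A (right of 0) or KDM6B (left of 0) for gene classes with 200 or more genes tested. Right, median log2 difference of protein-coding genes in 5 groups by intron bases, from -0.42 to 0.07 by TMM in the IDR-deleted groups, with the full-length groups and ERCC scaling beside it.

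Repeat RNA was higher in the KDM6A libraries. The KDM6A libraries held 0.927 and 0.954 repeat reads per gene read and the KDM6B libraries 0.501 and 0.502, where the other 12 libraries ranged from 0.586 to 0.921. Outside the spans of genes the ratios were 0.174 and 0.169 in KDM6A and 0.108 and 0.106 in KDM6B. In repeat reads per gene read the KDM6B libraries were thus the lowest of the series and the KDM6A libraries the highest, while outside genes the full-length KDM4B libraries reached the KDM6A level. With the library sizes of the genes, 51 of 60 families were higher in KDM6A and 2 higher in KDM6B (88.3% called), while TMM over the families themselves, which sets their median to 0, gave 21 and 20 (68.3% called), and ERCC scaling 57 and 1. L1 elements, the autonomous LINEs of mammals, differed by 1.22 ± 0.029 with gene library sizes, at 162 and 170.1 reads in KDM6A and 63.8 and 63.7 reads per 1000 gene reads. ERVL, the class to which the 2-cell-stage MERVL belongs, differed by 1.28 ± 0.021, ERVK, which holds the intracisternal A particles, by 0.995 ± 0.025 and ERV1 by 0.52 ± 0.019. Outside genes, copies of ERVL of at least 5 kb differed by 2.13 ± 0.051 and shorter ones by 1.301 ± 0.042, against 0.76 ± 0.03 and 1.35 ± 0.052 for L1. The table names families and no subfamilies, so MERVL itself was not analysed here.

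Only 2 families were higher in KDM6B with gene library sizes. The 7SL RNA of the signal recognition particle, labelled srpRNA, differed by -3.20 ± 0.10, at 0.521 and 0.493 reads in KDM6A and 3.75 and 4.57 reads per 1000 gene reads (-2.11 by ERCC), and rRNA, which had been depleted, by -1.58 ± 0.53 (-0.48 by ERCC, not called). For srpRNA copies outside genes the direction was the other one: 1.05 ± 0.12 with gene library sizes, at 8.34 and 6.89 CPM in KDM6A and 3.59 and 3.75 CPM in KDM6B, or 0.092 by TMM over families. The 7SL reads within gene spans and the rRNA reads thus went the way of ribosomal protein and mitochondrial RNA. By TMM over families, among those with at least 100 reads per library on average, the largest differences towards KDM6A were those of small families, LINE/I-Jockey (1.01 ± 0.21), RC/Helitron (0.73 ± 0.066, and -0.0031 outside genes), DNA/PiggyBac (0.69 ± 0.076), DNA/Crypton (0.54 ± 0.10) and DNA/PIF-Harbinger (0.44 ± 0.12). Besides srpRNA and rRNA, the largest towards KDM6B were snRNA (-1.57 ± 0.58, 0.47 by ERCC, and not called without any of 3 of the 4 libraries), DNA/hAT-Tip100 (-1.25 ± 0.21, 0.78 by ERCC) and the Y-chromosome satellite (-0.86 ± 0.055, 1.17 by ERCC and 0.081 ± 0.062 with gene library sizes).

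**Figure D5:**
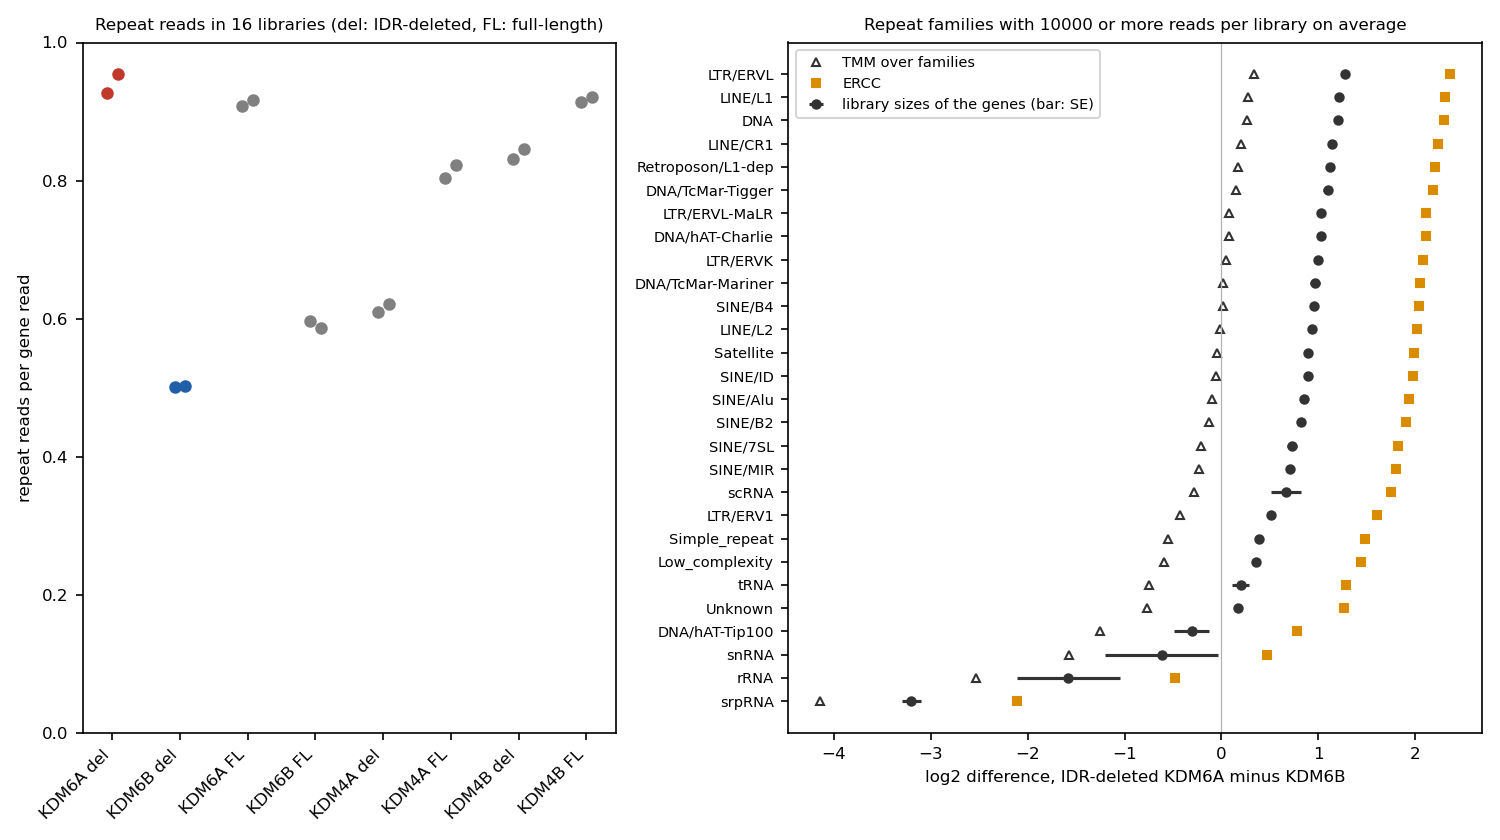
Left, repeat reads per gene read in each of the 16 libraries, with 0.93 and 0.95 in IDR-deleted KDM6A (red) and 0.50 and 0.50 in IDR-deleted KDM6B (blue). Right, log2 difference of repeat families with 10000 or more reads per library on average, under 3 scalings, where srpRNA lies at the low end under each.

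Single copies outside genes gave the same split at finer scale. Of 118772 copies tested with gene library sizes, 43487 (36.6%) were higher in KDM6A and 3245 (2.73%) higher in KDM6B, by ERCC 83473 and 966, and by TMM over the copies themselves 13267 and 10972. A copy can pass the filter on low counts through its higher group alone, so this split holds for the copies tested and not for all copies. The repeat reads outside genes per gene read, given above, do not depend on that filter. With the full-length proteins 32059 and 1405 were called, and the difference of the paralog differences was called for 538 copies in the positive and 234 in the negative direction. L1 copies were higher in KDM6A in 14259 of 31964 cases and in KDM6B in 237, and ERVL copies in 2023 and 42 of 4442. B2 elements, short retroposons transcribed by RNA polymerase III, were higher in KDM6A in 3632 of 14352 cases (25.3%) and in KDM6B in 1534 (10.7%). B2 copies thus leaned towards KDM6A, although they held 1534 of the 3245 copies higher in KDM6B. The 4 copies with the largest excess in KDM6A were all L1. One of them, 2167 bases on chromosome 13 (80456450 to 80458616, minus strand; GRCm39), drew 92 and 90 reads in the KDM6A and none in the KDM6B libraries, at least 60.8-fold higher, and lay 146 kb from the nearest gene. Of the 4 largest in KDM6B, 2 were B2, 1 was Alu and 1 was L1. A B2 copy on chromosome 9 (108144353 to 108144540, plus strand) drew 2 and 3 reads in KDM6A and 183 and 179 in KDM6B, 3.196 kb from Dag1. Reads that matched several places were not assigned to any, so young, near-identical copies are undercounted in every library.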

How the data were processed

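RNA of the chromatin fraction was depleted of rRNA, given m6A spike-in controls (2 RNAs, which drew no read) and made into stranded libraries, per the labels' protocols. The authors deposited raw counts of reads per gene and per repeat copy from featureCounts 2.0.3, which per the file headers counted each read of a pair, kept mapping quality of at least 30, ignored strand and dropped reads with several matches or features. HISAT2, SAMtools, Picard, MACS2 and GRCm39 are named in the submitters' processing notes. All 56941 gene rows were read, of which 52000 matched a GENCODE M21 symbol in the annotation table used here, and 92 ERCC rows were kept apart. Coordinates are the deposited GRCm39 ones.

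The 16 libraries were fitted together (8 group means, 8 residual degrees of freedom) with edgeR 4.0.16 in R 4.3.3 by the robust quasi-likelihood test, TMM scaling, a filter by group at a minimum count of 10, and Benjamini-Hochberg adjustment at 0.05. The standard error is the log2 difference over the root of F. Paralog contrasts were taken without the IDR, with it, and between the 2. Repeat copies outside gene spans were fitted with the library sizes of the genes, and families with TMM over families. A gene listed at 0 reads in a group is bounded at 3 reads over the group. The fits were tested on simulated counts.

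Genes named were the demethylases, the 8 largest calls each way at 1 and at 20 CPM with a proper symbol and no overlap, up to 4 calls with the smallest p per list for 38 lists, and the 5 largest calls each way of the difference of differences at 5 CPM. The text gives a part of these, with families (5 each way) and copies (4 each way). Some results are not reported here. The members and lists were chosen with earlier results of these data known. Alternatives were median-ratio and ERCC scaling, DESeq2 1.42.0, other filters, thinned libraries, the 4 libraries alone, the replicate number as a block, and leaving out each replicate. Same-numbered libraries of the 2 groups were checked for shared deviations.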

Additional observations from a re-analysis of the deposited data

Results flagged for a closer look

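For 71 of the 100 genes named in the text the paralog difference was not the same without and with the IDR. This rests on the interaction contrast of the KDM6 groups in the edgeR fit of all 16 libraries, at adjusted p under 0.05. Of all 31057 genes 21.8% were called in this way, so a called gene is not unusual among them. The values below are the log2 difference of the 2 paralog differences, without the IDR minus with it. ERCC scaling moved the median of these values by 0.16 and turned none of the 71 round, but ended the call of 17: Hoxa10, Zscan4d, Fabp3, Vegfa, Rec8, Dis3, Tdgf1, Rpl8, Kdm4b, Fn1, Ccnb2, Alkbh5, Stat2, Rplp2, Fdft1, Nanog and Fgf4. Among these Nanog went to -0.036, Fgf4 to -0.027, Fdft1 to -0.047, Rplp2 to -0.054 and Stat2 to -0.068.

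The most frequent pattern among the named genes was a larger difference in the same direction without the IDR. Most of these genes were chosen by the size or p-value of their difference without the IDR, and some by the difference of differences itself. That choice favours both a call and this pattern, so the share called and the pattern describe the named genes only. Among genes higher in KDM6B this held for Fam83f (-3.27), Cpne7 (-2.67), Bst2 (-1.997), Sox9 (-1.92), Txnip (-1.54), Barx1 (-1.34), Esx1 (-1.30), Chac1 (-1.27), Nefl (-1.26), Hoxa10 (-1.20), Gpi1 (-0.95), Rprl3 (-0.92), Peg3 (-0.72) and Ezh1 (-0.65). Smaller values of the same kind were those of Pim3 (-0.54), Psat1 (-0.54), Hist1h4d (-0.52), Socs3 (-0.52), Pgk1 (-0.51), Rplp1 (-0.45), Dnmt3l (-0.44), Ldha (-0.42), Fabp3 (-0.41), Vegfa (-0.38), Rec8 (-0.37), Dis3 (-0.33), Tdgf1 (-0.30), Rpl8 (-0.30), Fn1 (-0.27), Ccnb2 (-0.26), Alkbh5 (-0.25), Stat2 (-0.23), Rplp2 (-0.22), Fdft1 (-0.21), Nanog (-0.20) and Fgf4 (-0.19). Among genes higher in KDM6A it held for Pramel6 (1.56), Meis2 (1.12), Olfr836 (1.10), Xist (1.09), Hoxb9 (0.96), Tsix (0.89), Sox2ot (0.88), Olfr986 (0.73), Hpgds (0.68), Suv39h1 (0.62), Kcnq1ot1 (0.61), Etv1 (0.60), Exosc5 (0.52), Mettl16 (0.52), Aebp2 (0.49), Kdm2a (0.46), Kdm5b (0.35), Tbx3 (0.30) and Tet1 (0.18).

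A smaller difference without the IDR was found for Cybb (-2.54), Lefty2 (-0.98), Zscan4e (-0.50) and Zscan4d (-0.45), which were higher in KDM6A, and for H19 (1.89), Ccn1 (0.65), mt-Cytb (0.44) and Dnmt3b (0.39), which were higher in KDM6B. Tspoap1 (-2.38) and Lama1 (0.92) were called in opposite directions. The paralog difference of Stra8 (-1.63), Kmt2a (0.33), Kdm4b (-0.28) and Gstt1 (-7.83) was called without the IDR alone, and the value of Gstt1 depends on the prior count because it had no reads in IDR-deleted KDM6A. That of Serpina3m (-3.24) and Rhox5 (2.30) was called with the IDR alone.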

How the results depend on the processing

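Scaling decided the direction of many results. By ERCC reads 21941 genes were higher in KDM6A and 1549 in KDM6B, 57 and 1 families and 83473 and 966 copies. Genes that turned positive were Kdm6b (0.72), Kdm4a (0.51), Kdm4b (0.71), Nanog (0.0048), Fgf4 (0.30), Dnmt3b (0.17), Lifr (0.33), Tcf7 (0.38), Tdgf1 (0.15), Nes (0.14), Fn1 (0.58), Dis3 (0.40), Fdft1 (0.023), Cenpf (0.44) and Stat2 (0.46). List medians that turned positive were PRC2 0.90, PRC1 0.76, other demethylases 0.94, naive 0.84, formative and primed 0.96, LIF 0.34, WNT 0.53, ERK 0.35, primitive endoderm 0.35, neural 0.35, fibroblast 0.26, Polycomb-bound 0.044, Hox 0.23, germline 0.74, imprinted 0.87, small structured RNA 0.41, exosome 1.01, heat shock 0.22, ATF4 0.39, p53 0.68, cholesterol 0.40, mitotic 0.73, histones 0.31 and interferon 0.52. So did DNA/hAT-Tip100 (0.78), the Y-chromosome satellite (1.17) and snRNA (0.47). Dnmt3l, Col4a2, Vim, Rec8, mt-Cytb, H19 and the rRNA family lost their call there, and Rhox5 gained one. The library sizes of the genes gave 51 and 2 families and 0.081 for the Y-chromosome satellite, and ended the calls of DNA/hAT-Tip100 and snRNA. Copies outside genes gave 13 and 12 families, with RC/Helitron at -0.0031, the satellite at 0.49 and srpRNA at 0.092, and DNA/Crypton, DNA/PIF-Harbinger and DNA/PiggyBac lost their call. TMM over copies gave 13267 and 10972 copies, and a minimum count of 30 gave 28544 and 2028, where fewer copies were tested. The cause of the other changes was not tested.

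Without 1 replicate the counts were 8388 to 8671 genes higher in KDM6A and 8340 to 8580 in KDM6B, 13481 to 13785 called with the IDR and 5422 to 6058 for the difference of differences, 18 to 21 and 19 to 19 families, and 30746 to 34170 and 2165 to 2269 copies. The Nodal and BMP median was -0.012 and -0.050 without KDM6A replicate 1 and 2. Leaving out 1 replicate ended the call of Cybb in 3 of 4 cases and that of the snRNA family in 3, and a fit of the 4 libraries alone ended those of the rRNA and snRNA families. DESeq2, median-ratio scaling, no filter, a minimum count of 50 and thinned libraries changed no call, direction or count by over 1.5 times. Same-numbered libraries of the 2 groups did not deviate together (r = 0.073 across genes). Over all 28 pairs of groups this correlation ran from 0.0016 to 0.343, and for IDR-deleted KDM6A it was 0.30 to 0.34 with the KDM4A, KDM4B and full-length KDM6A groups. Every pair with a KDM6B group, IDR-deleted or full-length, lay between 0.0016 and 0.083, and every other pair between 0.27 and 0.343. As not every pair was over 0.1, the numbers were not used to pair the libraries in the main fit. Among the groups other than KDM6B, same-numbered libraries did share deviations. Whether the KDM6B groups were handled apart from the other groups is not labelled and was not tested. In both paralog comparisons such handling cannot be told apart from the paralog. With the replicate number as a block the counts were 9841 and 9488 genes, 16193 with the IDR, 7556 for the difference of differences, 22 and 21 families and 43959 and 3360 copies, and no call among the 171 results changed. With 2 libraries a group, an exact permutation test cannot go below p = 0.333, and the adjusted p-values rest on the spread shared by 8 groups.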

Other observations

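Chromosome 6 stood apart in the difference of the paralog differences. Only protein-coding genes tested with a mean of at least 5 CPM over the IDR-deleted KDM6A and KDM6B libraries were used here. Over the 537 such genes of chromosome 6 the median was -0.16, with 40 called positive and 204 negative. The paralog difference itself had a median of -0.23 without and -0.0085 with the IDR. Chromosome 8 gave -0.087 over 627 such genes, with 62 positive and 167 negative, and the medians of the other 17 autosomes lay between -0.038 and 0.038. Relative to the mean over all 16 libraries, the chromosome 6 median was -0.21 in IDR-deleted KDM6A, -0.045 in full-length KDM6A, -0.0019 in IDR-deleted and -0.0059 in full-length KDM6B. IDR-deleted KDM4B was about as low (-0.20), while full-length KDM4B was at 0.15, IDR-deleted KDM4A at 0.099 and full-length KDM4A at 0.032, so a low value is not particular to IDR-deleted KDM6A. Of the genes described above, Rny1, Nanog, Gata2, Hoxa10, Stra8, Hpgds and Aebp2 lie on chromosome 6, and the value of Nanog (-0.20) is close to the chromosome's median. The comparison was looked at after the values had been seen, and its cause was not tested.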
